A study of Mus musculus with 14 samples.

Results

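Replication-dependent histone genes are the multicopy genes of the Hist1, Hist2, Hist3 and Hist4 clusters, which supply the core and linker histones that package newly made DNA. All 67 protein-coding genes of the GENCODE vM1 annotation of the mouse mm9 genome whose symbol starts with Hist1h, Hist2h, Hist3h or Hist4h were taken, of 22367 protein-coding genes in all. The rule reads gene symbols only. The Hist1 cluster on chromosome 13 held 55 of them, Hist2 on chromosome 3 held 9, Hist3 on chromosome 11 held 2, and Hist4 on chromosome 6 held 1. By type, 6 encode the linker histone H1, 19 encode H2A, 18 encode H2B, 11 encode H3 and 13 encode H4.

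The series profiled the developing mouse retina by RNA-Seq, ATAC-Seq and ChIP-Seq, to relate the LHX2 transcription factor to open chromatin. The measurement here was ChIP-Seq at embryonic day 14 (E14) with a rabbit antibody to histone H3 acetylated at lysine 27 (H3K27ac), a mark of active promoters and enhancers, in CD1 mice. The label names retinal progenitor cells (RPCs), whereas the study's methods describe chromatin from whole dissected retinas, so the list may cover dividing and post-mitotic cells together. It was called once, on 1 alignment against 1 isotype control where the label lists 2 replicate libraries, and gives 1 value per peak, with no spread between replicates and no test of any difference.

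During S phase a dividing cell needs new histones in large amounts, and these genes are then transcribed together in nuclear structures called histone locus bodies, where the scaffold NPAT gathers. Their messages carry no poly(A) tail. A stem-loop after the stop codon, bound by the protein SLBP, takes its place, and the genes are short and mostly without introns. The embryonic retina contains many cycling progenitors, and a few family members are known as variants of the male germ line.

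The list held 13463 peaks, called from 113543038 ChIP tags and 9210563 control tags after duplicate removal, or 12.3 ChIP tags for each control tag. Of the peaks, 9358 overlapped the 1000 bp on either side of the transcription start site (TSS) of a protein-coding gene. Marker genes were read as present or absent peaks at the TSS. All 11 retinal progenitor genes reported here, including Pax6, Rax and Ccnd1, had a peak. Of 5 retinal ganglion cell genes 4 had one, Sncg being the exception. No peak was called at 5 of 5 lens genes and 4 of 4 muscle or liver genes, while 1 of 7 blood and endothelial genes (Kdr) and 1 of 6 pigment epithelium genes (Pmel) had one. The peak at Pmel was the same as that at the neighbouring cell cycle kinase gene Cdk2.

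The stem-loop was looked for first, because it defines the family. Within 300 bp after the stop codon, 58 of 67 genes carried the 16-base pattern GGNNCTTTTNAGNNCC on the sense strand, whose outer letters pair into a hairpin. Of 22300 other protein-coding genes 5 carried it, among them the histone gene H2afx. It began 22 to 59 bp after the stop codon (median 32 bp). There were 6 distinct versions, shown here because they separate the H4 genes from the others, with the loop of the hairpin in capitals.
Found in 36 H1, H2A, H2B and H3 genes: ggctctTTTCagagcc
Found in 9 H1, H2A, H2B and H3 genes: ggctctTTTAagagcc
Found in 1 H2A gene, Hist2h2ac: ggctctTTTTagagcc
Found in 8 H4 genes: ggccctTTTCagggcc
Found in 2 H4 genes, Hist1h4i and Hist2h4: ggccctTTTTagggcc
Found in 2 H4 genes, Hist1h4j and Hist1h4b: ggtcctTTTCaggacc
No H4 gene had a version found at another type. The pattern was not matched at 9 genes, Hist1h2an, Hist1h2bp, Hist1h2bq, Hist1h2br, Hist1h3g, Hist1h4a, Hist1h2al, Hist2h2be and Hist2h2bb. The stop codon used was that of the longest complete annotated coding sequence. This had 138 codons at Hist1h2bp, 135 at Hist1h2bq and Hist1h2br and 120 at Hist2h2bb, against 126 for the commonest H2B protein. At Hist1h2al the annotated coding sequence was incomplete. A stem-loop after another stop codon of these genes could have been missed. Of the 58 stem-loops, 53 lay inside an H3K27ac peak. At the median distance of 32 bp after the stop codon of other protein-coding genes, 16 bases lay in a peak at 1.60%, or at 2.77% of those with a peak at the TSS. The annotation gave 61 genes a single exon, and the median gene length was 530 bp.

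Nearly every histone gene had an H3K27ac peak at its promoter. A peak overlapped the TSS window at 63 of 67 genes, which is 94.0% (95% Wilson interval 85.6 to 97.7%). Over all protein-coding genes the share was 47.5%. The interval covers counting error only, and genes that share a peak are not independent. No gene had a second peak in its window. In bulk chromatin a lower pileup in each cell cannot be told apart from a smaller share of cells carrying the mark.

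The share was high in each cluster and for each type. In Hist1 it was 51 of 55 genes (92.7%, 82.7 to 97.1%), in Hist2 9 of 9, in Hist3 2 of 2, and Hist4h4 also had a peak. All 11 H3 genes had one, as did 18 of 19 H2A genes (94.7%, 75.4 to 99.1%), 17 of 18 H2B genes (94.4%, 74.2 to 99.0%), 12 of 13 H4 genes (92.3%, 66.7 to 98.6%) and 5 of 6 H1 genes (83.3%, 43.6 to 97.0%). The intervals of the 5 types overlapped one another.

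**Figure D1:**
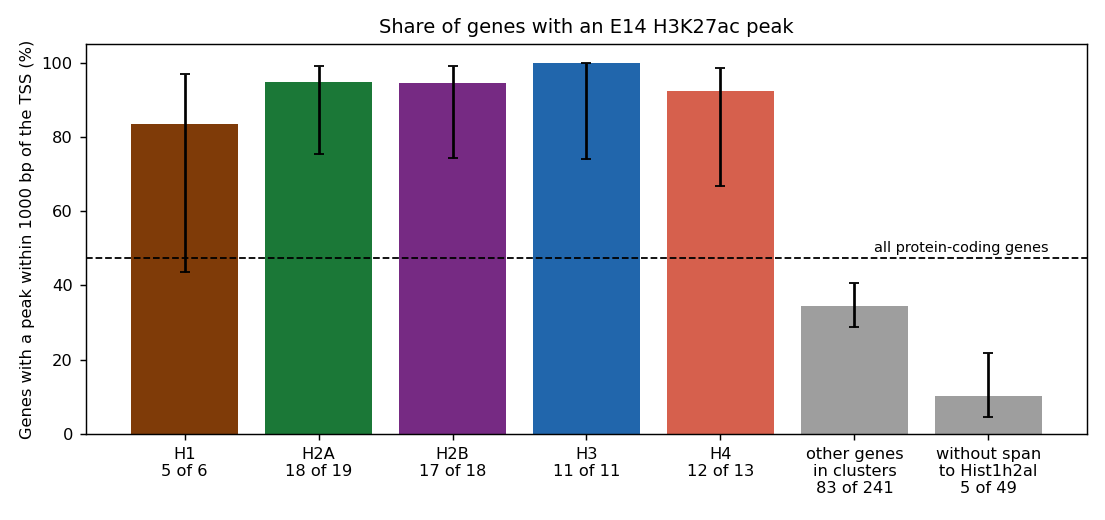
Share of genes (%) with an E14 H3K27ac peak within 1000 bp of the TSS, for the 5 histone types, for the 241 non-histone protein-coding genes between the first and last TSS of a cluster, and for the 49 of them left when the span to Hist1h2al is taken out. Error bars are 95% Wilson intervals of counting error, and the dashed line is the share over all protein-coding genes (47.5%). All 5 histone types stand above that line, and the other genes stand below it at 34.4% and 10.2%.

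The 4 genes without a peak were Hist1h1t, Hist1h2aa, Hist1h2ba and Hist1h4b. The first 3 are the members known from the testis, Hist1h1t being the testis H1 and the other pair the testis H2A and H2B. No peak was called at any of these 3, whereas 63 of the remaining 64 genes (98.4%, 91.7 to 99.7%) had one. Hist1h2ba and Hist1h2aa lay apart, with 170135 and 170441 bp from their TSSs to the nearest peak. Hist1h1t lay 2066 bp from the peak of Hist1h4c, which spanned chr13:23789746-23790185 (440 bp, fold enrichment 3.23). Hist1h4b was 3659 bp from the peak of Hist1h4a, which spanned chr13:23852465-23855890.

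The 13 H4 genes all encode 1 identical protein of 103 codons, from 12 distinct coding sequences, so the proteins of Hist1h4b and of the 12 H4 genes with a peak do not differ. The bases before their annotated starts do. The 200 bases before the annotated start of Hist1h4b and of its peak-bearing neighbour Hist1h4a are shown with those of the H4 gene with the highest pileup, Hist4h4. They are in mm9, in the direction of transcription, with capitals for the 5 motifs searched on both strands, which were the TATA box TATAAA, the CCAAT box CCAAT, the octamer ATTTGCAT, the H1 box AAACACA and GTCCG, the core of the site of the H4 factor HINFP.
Hist1h4b, no peak, chr13:23848606-23848805, plus strand: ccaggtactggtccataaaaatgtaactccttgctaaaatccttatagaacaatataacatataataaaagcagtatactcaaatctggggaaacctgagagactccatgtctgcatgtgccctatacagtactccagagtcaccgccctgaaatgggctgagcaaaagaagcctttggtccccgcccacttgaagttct
Hist1h4a, peak, chr13:23853100-23853299, minus strand: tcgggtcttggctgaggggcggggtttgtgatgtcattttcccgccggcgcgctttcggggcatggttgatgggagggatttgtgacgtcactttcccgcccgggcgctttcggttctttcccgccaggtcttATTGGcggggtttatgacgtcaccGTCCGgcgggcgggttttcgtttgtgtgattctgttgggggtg
Hist4h4, peak, chr6:136752901-136753100, minus strand: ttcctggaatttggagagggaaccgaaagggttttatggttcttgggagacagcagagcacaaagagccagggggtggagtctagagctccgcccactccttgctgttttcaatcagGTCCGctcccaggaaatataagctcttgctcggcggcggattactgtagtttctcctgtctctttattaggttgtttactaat
The Hist1h4b sequence had a GC content of 43.5% and 2 CpG dinucleotides, that of Hist1h4a 60.5% and 20, and that of Hist4h4 49.0% and 6. Hist1h4a is the highest of the 12 H4 genes with a peak, which ran from 45.5 to 60.5% in GC content (median 50.5%) and from 6 to 20 in CpG dinucleotides. Over the 2001 bp window the ratio of observed to expected CpG at Hist1h4b (0.536) lay within the range of those with a peak (0.523 to 0.927). None of the 5 motifs lay within the 200 bases of Hist1h4b, while GTCCG lay within those of all 12 H4 genes with a peak. In the wider window from 250 bases before to 50 after the start, GTCCG was present at all 13 H4 genes, Hist1h4b included. The annotated start lay 84 bp before the start codon at Hist1h4b, the farthest of the 13 (median 29 bp). It lay 73 bp before it at Hist1h4a and 0 bp at Hist4h4. The 200 bases compared are therefore not aligned to the coding sequence, and the part of this in the differences was not tested.

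The promoter of the testis H1 gene was compared with those of linker genes that had a peak. The somatic gene Hist1h1b, the one with the highest fold enrichment, and Hist1h1e are shown beside Hist1h1t, again with the motifs in capitals and in the direction of transcription.
Hist1h1t, no peak, chr13:23787480-23787679, plus strand: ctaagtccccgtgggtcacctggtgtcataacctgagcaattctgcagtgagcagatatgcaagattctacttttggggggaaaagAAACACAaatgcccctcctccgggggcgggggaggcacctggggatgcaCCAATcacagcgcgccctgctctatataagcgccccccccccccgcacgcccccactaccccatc
Hist1h1b, peak, chr13:21872495-21872694, minus strand: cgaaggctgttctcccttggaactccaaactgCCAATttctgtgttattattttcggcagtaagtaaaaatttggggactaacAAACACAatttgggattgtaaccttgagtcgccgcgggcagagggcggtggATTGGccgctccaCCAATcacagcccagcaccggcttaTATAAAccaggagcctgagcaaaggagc
Hist1h1e, peak, chr13:23714372-23714571, minus strand: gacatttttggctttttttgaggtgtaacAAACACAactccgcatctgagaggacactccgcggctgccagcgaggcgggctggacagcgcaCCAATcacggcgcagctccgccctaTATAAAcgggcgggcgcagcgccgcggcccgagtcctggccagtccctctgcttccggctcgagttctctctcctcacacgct
The H1 box and the CCAAT box were present in all 3, and the letters TATAAA in Hist1h1b and Hist1h1e and not in Hist1h1t. Of the 5 linker genes with a peak 4 had TATAAA in these 200 bases, and Hist1h1c lacked it as Hist1h1t did. The GC content of Hist1h1t was 60.0%, between those of Hist1h1b (50%) and Hist1h1e (62%). Over the 2001 bp window, the ratio of observed to expected CpG was 0.415 at Hist1h1t, the lowest of the 67 genes.

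Across the family the promoter letters varied with the histone type. In the 300 bases around the start, CCAAT was found at all 6 H1, all 19 H2A and all 18 H2B genes, at 10 of 11 H3 genes and at 4 of 13 H4 genes, against 37.9% of all protein-coding promoters of the same length. The octamer was found at 7 H2A and 8 H2B genes and at no H1, H3 or H4 gene, against 1.73% of all promoters. Both strands were searched, and the windows of neighbouring H2A and H2B genes can overlap. One site may therefore count for both types. AAACACA was found at 5 of 6 H1 genes, 3 of 18 H2B genes, 1 H2A gene, 1 H3 gene and no H4 gene, against 6.42%. GTCCG was found at 13 of 13 H4 genes, 9 of 19 H2A, 8 of 18 H2B, 3 of 11 H3 and 1 of 6 H1 genes, against 27%. In RefSeq promoters its counts were 12 of 12 H4, 8 of 17 H2A and 5 of 16 H2B genes. They were 1 of 9 H3 and 0 of 6 H1 genes, against 23.4% of all. TATAAA was found at 38 of 67 genes (56.7%), against 13.4%. A match of letters is a description and not a bound site.

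H2A and H2B genes mostly lay head to head. Counting TSSs of opposite strands that face away from each other within 1000 bp, there were 13 divergent pairs, of which 12 joined an H2A with an H2B gene and 1 joined Hist1h2bh with Hist1h3f. The TSSs of a pair were 168 to 693 bp apart (median 241 bp). A single peak covered the TSSs of both genes in 12 of the 13 pairs, against 78.7% of 778 divergent pairs of other protein-coding genes within 1000 bp and 75.5% of the 286 with TSSs 168 to 693 bp apart. The exception was the testis pair Hist1h2ba/Hist1h2aa, with 306 bp between its TSSs.

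The spacers between the starts of 4 such pairs are shown on the plus strand of mm9, because they place the testis pair beside pairs that share a peak. Capitals mark the same 5 motifs on either strand.
Hist1h2ba/Hist1h2aa, no peak, chr13:24026028-24026327: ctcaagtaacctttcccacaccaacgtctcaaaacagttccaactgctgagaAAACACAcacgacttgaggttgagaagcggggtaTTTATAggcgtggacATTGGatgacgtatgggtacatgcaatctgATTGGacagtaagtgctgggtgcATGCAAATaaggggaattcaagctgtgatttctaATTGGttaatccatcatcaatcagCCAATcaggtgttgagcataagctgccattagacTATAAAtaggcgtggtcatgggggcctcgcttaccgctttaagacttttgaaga
Hist1h2ae/Hist1h2bg, peak, chr13:23663090-23663264: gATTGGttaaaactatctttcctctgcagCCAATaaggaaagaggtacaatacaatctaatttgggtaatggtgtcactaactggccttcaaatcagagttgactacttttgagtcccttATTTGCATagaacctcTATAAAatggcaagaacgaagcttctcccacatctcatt
Hist2h2ac/Hist2h2be, peak, chr3:96024804-96025043: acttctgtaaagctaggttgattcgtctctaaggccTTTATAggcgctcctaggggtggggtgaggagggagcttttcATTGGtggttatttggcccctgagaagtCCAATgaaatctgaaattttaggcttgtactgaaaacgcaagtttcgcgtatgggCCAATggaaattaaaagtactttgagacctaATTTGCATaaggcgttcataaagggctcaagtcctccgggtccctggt
Hist1h2bq/Hist1h2ao, peak, chr13:21902069-21902235: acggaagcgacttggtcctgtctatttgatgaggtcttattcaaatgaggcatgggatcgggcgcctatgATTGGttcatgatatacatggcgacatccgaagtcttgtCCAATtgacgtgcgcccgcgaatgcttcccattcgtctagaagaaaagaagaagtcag
The testis spacer, shown for its central 300 bases, held the TATA box at 2 places, CCAAT at 4, the octamer at 1 and AAACACA at 1, and no peak. The Hist1h2bq/Hist1h2ao spacer lay under a peak and held CCAAT at 2 places and none of the other 4 motifs. It matched the reverse complement of the Hist1h2ap/Hist1h2br spacer at all 167 of 167 bases. The GC content of the 4 spacers in the order shown was 44.7%, 38.3%, 45.8% and 47.9%.

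The 63 genes shared 37 distinct peaks. Of these, 18 overlapped the window of 1 histone gene, 12 those of 2 and 7 those of 3, and no peak reached 4. Thus 45 genes shared a peak with another histone gene and 18 were the one histone gene in theirs, 2 of which (Hist3h2a and Hist1h4d) shared it with a non-histone gene. Peaks over 2 or more histone genes made up 19 of 37 (51.4%), whereas 13.1% of all promoter peaks overlapped the windows of 2 or more protein-coding genes. For 3 or more genes the share was 7 of 37 (18.9%), against 0.374% of promoter peaks. Histone genes lie close together, and their 67 windows merge into 40. Neither background share was matched for the spacing of genes, and the part of spacing in these differences was not tested. In all, 35 peaks of the list overlapped 3 or more protein-coding genes, and 7 of them were the histone peaks.

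Of the 7 triple peaks, 5 covered a divergent H2A/H2B pair of Hist1 with an H3 or H4 gene beside it. These were Hist1h2bl/Hist1h2ai/Hist1h3h (2806 bp), Hist1h2bq/Hist1h2ao/Hist1h4m (2958 bp), Hist1h4n/Hist1h2ap/Hist1h2br (2858 bp), Hist1h4i/Hist1h2ag/Hist1h2bj (3115 bp) and Hist1h2bf/Hist1h2ad/Hist1h3d (2774 bp). The peak over Hist1h4a, Hist1h3a and the linker gene Hist1h1a held no divergent pair and was the longest histone peak, at 3426 bp. The remaining one, over Hist2h2ab, Hist2h2ac and Hist2h2be, was 2328 bp long. All TSSs of the 3 genes lay inside each of the 7 peaks.

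**Figure D2:**
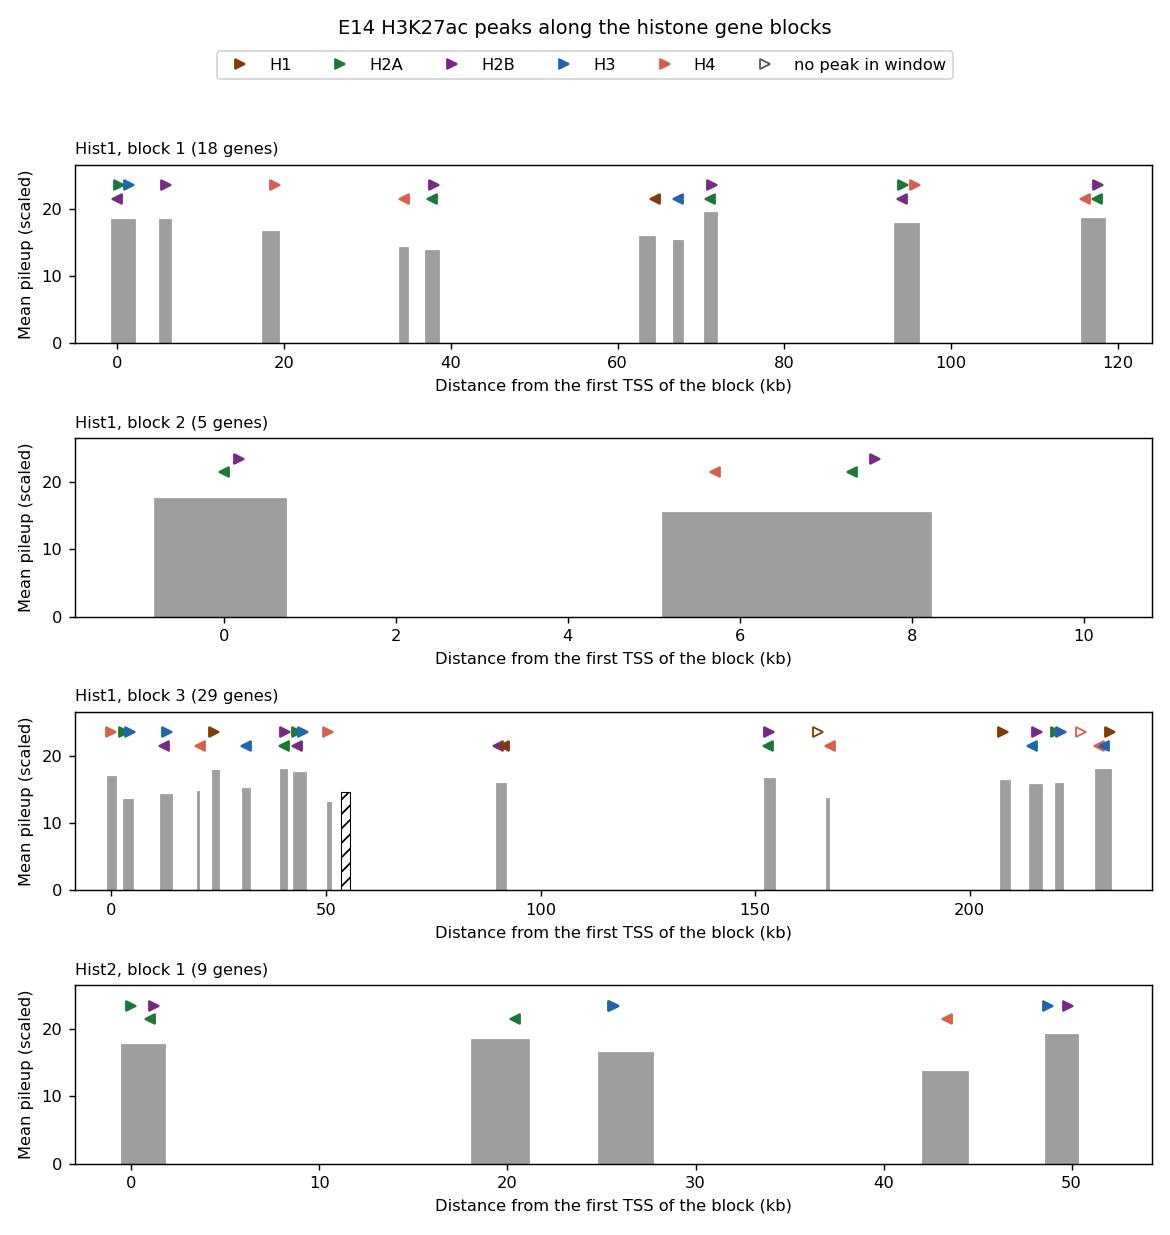
H3K27ac peaks along the 4 blocks of histone genes that hold 5 or more members, with distance from the first TSS of the block (kb) on the x axis and the mean pileup of each peak (scaled tag coverage) on the y axis. Grey bars are peaks at histone TSSs, the hatched bar is the one peak in these blocks away from any histone TSS, and arrowheads are genes, coloured by type and pointing in the direction of transcription, open where no peak lay in the window (that of Hist2h2aa1 is hidden behind Hist2h3c1). The bars stand apart from each other at 12.9 to 19.3 in height, and the open arrowheads are Hist1h1t and Hist1h4b.

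The peaks were separate islands, not one domain over a cluster. Members were split into blocks where neighbouring TSSs lay more than 100 kb apart. The first Hist1 block held 18 genes over 117.6 kb with 10 peaks, which covered 15.6% of the block taken with 1000 bp on each side, as in the other shares given here. The third held 29 genes over 232.6 kb with 17 peaks covering 13.5%. The compact second block, with 5 genes over 7.57 kb, had 2 peaks covering 48.5%, and the Hist2 cluster, with 9 genes over 49.8 kb, had 5 peaks covering 23.6%. The fourth block was the testis pair, and the fifth the lone gene Hist1h2al far along the chromosome. When peaks within 1000 bp were joined, the histone peaks stayed at 37 and none covered 4 or more genes.

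Every peak in the blocks but 1 lay within 1000 bp of an annotated histone TSS. That one spanned chr13:23676420-23678459 (2040 bp, pileup 14.6, fold enrichment 4.17) and overlapped the coding exon of Hist1h2be. The annotated start of Hist1h2be is an upstream exon near the linker gene Hist1h1e, 35168 bp from its start codon. Hist1h2be was therefore counted with the Hist1h1e peak at chr13:23712755-23714864 (2110 bp, pileup 15.8).

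Between the first and last TSS of the clusters lay 241 non-histone protein-coding genes, and 83 of them had a peak (34.4%, 28.7 to 40.6%). Most of these genes lay between the Hist1 blocks and the lone gene Hist1h2al. Without that stretch, a limit set after seeing the data, 49 genes remained and 5 of them had a peak (10.2%, 4.44 to 21.8%). None of the 32 Vmn1r vomeronasal receptor genes among these 49, which encode pheromone receptors, had one (0 of 32, upper limit 10.7%). The 5 with a peak were Zfp184, Zfp322a, Abt1, Gm17658 and Trim17. The peaks of Gm17658 and Trim17 were those of Hist1h4d and Hist3h2a. Among the 12 others without one were Hfe, the iron regulator, and the transporter genes Slc17a1, Slc17a2, Slc17a3 and Slc17a4.

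Histone peaks were long. Their median length was 1923 bp (range 365 to 3426 bp), against 1088 bp over all 9358 promoter peaks, and 31 of 37 were longer than that background median. Of the 37, 17 (45.9%) were longer than 2000 bp, against 10.0% of promoter peaks. Peaks over more genes were longer, and a longer peak can reach more TSS windows. The median was 1529 bp for peaks of 1 histone gene, 1895.5 bp for 2 and 2858 bp for 3, with a Spearman coefficient of 0.599 over the 37 peaks, given as a description of peaks of 1 library pool. Among promoter peaks of 1, 2 and 3 or more protein-coding genes the medians were 1036, 1360 and 1676 bp.

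Histone peaks were not higher. The pileup, which is the mean tag coverage along the peak after the larger library was scaled down, had a median of 16.6 (12.9 to 23.8), against 16.5 over promoter peaks, and 20 of 37 exceeded the background median. The fold enrichment over the isotype control had a median of 4.53 (2.75 to 6.77), against 4.75, and 11 of 37 exceeded it. Both quantities hardly moved together among histone peaks (Spearman coefficient -0.08 over 37 peaks) and did so over all promoter peaks (0.452 over 9358).

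**Figure D3:**
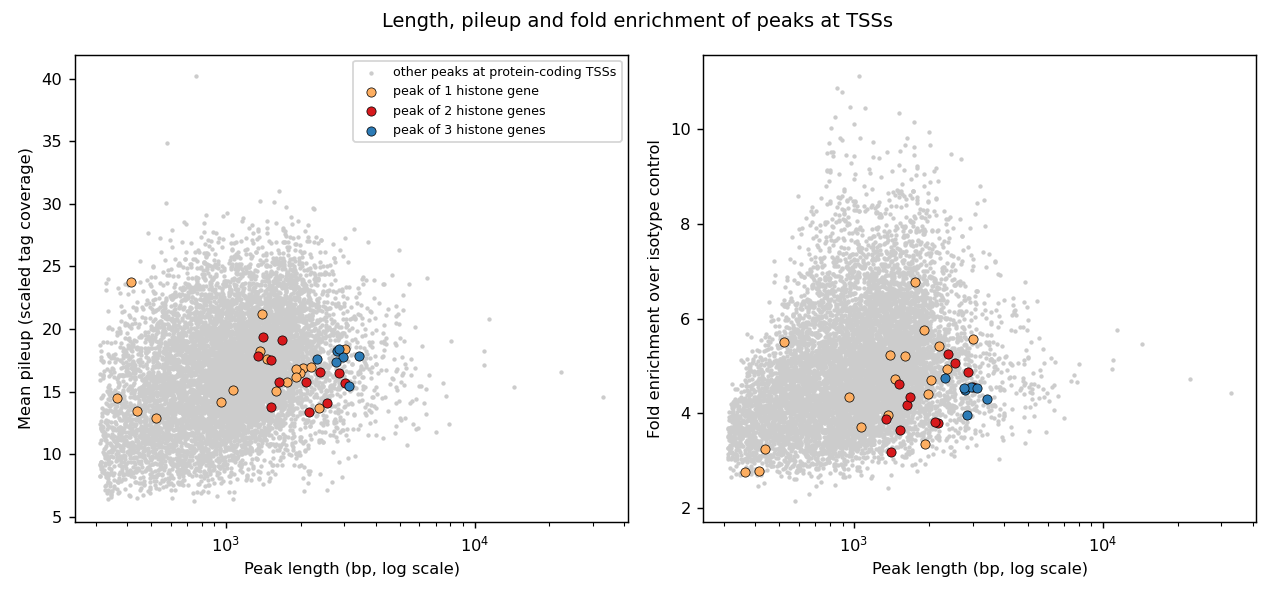
Length (bp, log scale) of peaks at protein-coding TSSs against their mean pileup (left) and their fold enrichment over the isotype control (right). Grey points are the promoter peaks without a histone gene, and coloured points are the 37 histone peaks by the number of histone genes covered. Peaks of 3 histone genes lie to the right, between 2328 and 3426 bp, and all coloured points stay within the range of the grey ones in both heights.

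The 3 highest pileups were 23.8 at Hist1h2al, 21.2 at Hist4h4 and 19.3 over the pair Hist1h2an/Hist1h2bp. Their fold enrichments were 2.77, 5.23 and 3.18, so the first and the last were high in pileup and low against the control. The 3 lowest pileups were 12.9 at Hist1h4d, 13.4 over Hist1h2af/Hist1h3g and 13.5 at Hist1h4c. The H1 gene Hist1h1b had the highest fold enrichment, 6.77, with a pileup of 15.8, and the H4 gene Hist1h4f the lowest, 2.75, with a pileup of 14.5.

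The 3 shortest peaks were those of Hist1h4f (365 bp), Hist1h2al (415 bp) and Hist1h4c (440 bp). The longest after the Hist1h4a/Hist1h3a/Hist1h1a peak were the one over Hist1h4i, Hist1h2ag and Hist1h2bj (3115 bp) and that of Hist2h2aa2 (3007 bp), which also overlapped the annotated H3 pseudogene Hist2h3c2. Pseudogenes were not counted. The symbol rule would otherwise have added 3, Hist2h3c2, Hist3h2bb-ps and Hist1h2aj, and each lay in the peak of a counted gene.

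The other linker genes varied within these limits. The peak of Hist1h1c was 1923 bp long with a pileup of 16.2 and a fold enrichment of 3.35, and that of Hist1h1d 1459 bp, 17.7 and 4.73. Hist1h1e shared its peak with the start of Hist1h2be at a fold enrichment of 3.81. Hist1h1a lay at the end of the triple peak with a pileup of 17.9 and a fold enrichment of 4.29. The H1 peaks together ranged from 15.8 to 17.9 in pileup and from 3.35 to 6.77 in fold enrichment.

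In the Hist2 cluster the peak of Hist2h2ab, Hist2h2ac and Hist2h2be had a pileup of 17.6, that of Hist2h2aa2 18.4, that of Hist2h2aa1 and Hist2h3c1 16.5, that of Hist2h4 13.7, and that of Hist2h3b and Hist2h2bb 19.1. Fold enrichment ran from 4.33 to 5.56, and median length was 2360 bp, against 1759 bp in Hist1. In Hist3, the peak of Hist3h2ba was 2044 bp long with a pileup of 16.9, and that of Hist3h2a, which shares its annotated start with Trim17, was 2192 bp long with a pileup of 17.0. Hist4h4 had a peak of 1398 bp.

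A stricter cut removed peaks in Hist1 and in no other cluster, a difference that was not tested. At the limits of 4 for fold enrichment and 0.001 for the q value, which the study's methods give for high-confidence peaks, 44 of 67 genes kept a peak (65.7%), against 36.0% of all protein-coding genes. All 9 Hist2 genes, on 5 peaks, both Hist3 and the 1 Hist4 gene kept theirs, and 32 of 55 Hist1 genes did (58.2%). Of the 37 peaks 25 passed (67.6%), against 75.3% of promoter peaks. Genes that lost their peak included Hist1h1c, Hist1h1e, Hist1h4f, Hist1h4c and Hist1h2al.

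The genes are short, with a median length of 530 bp, and the peaks commonly covered them whole. The gene body lay wholly inside the peak at 37 of the 63 genes, and the median share of the body covered was 100%, against 2.75% at the other genes with a promoter peak. Relative to the TSS, in the direction of transcription, the median peak began 941 bp before and ended 707 bp after it. At other genes these medians were 402 bp before and 709 bp after. The upper quartile of the distance after the TSS was 1520 bp at histone genes and 973 bp at other genes. The part of gene length in the share of the body covered was not tested. For genes with no other histone gene in their peak, the median start was 519 bp before the TSS.

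**Figure D4:**
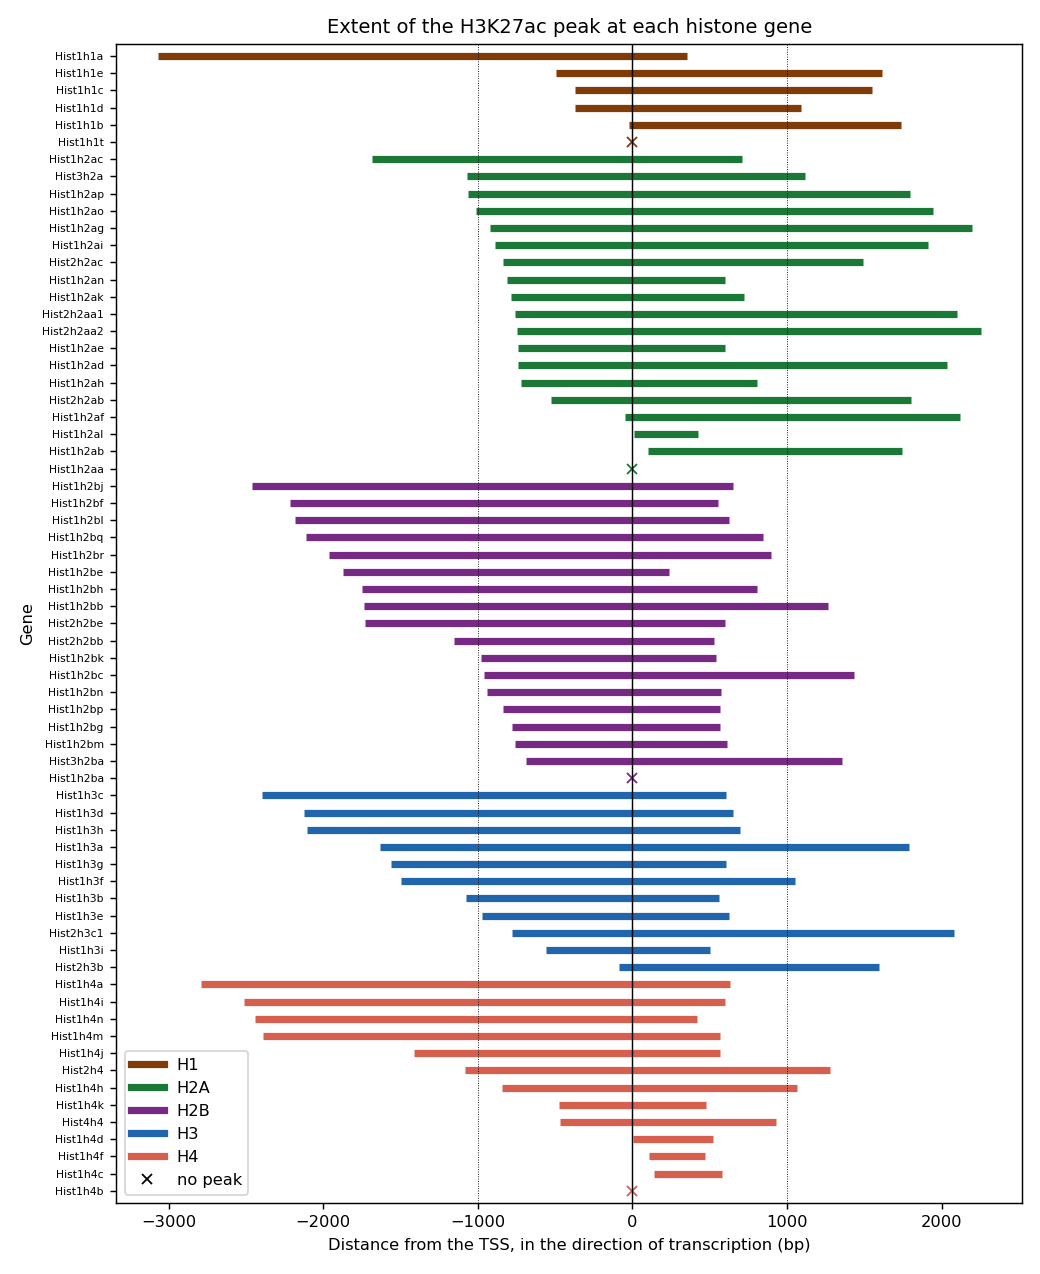
Extent of the H3K27ac peak at each of the 67 histone genes, with distance from the TSS in the direction of transcription (bp) on the x axis and 1 line per gene, coloured by histone type. Dotted lines mark 1000 bp on either side, and crosses mark the 4 genes without a peak. Most lines cross the TSS, and the shortest, at Hist1h4f, Hist1h2al and Hist1h4c, start after it.

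The side to which a peak reached varied with the type and with the genes that shared it. Peaks at H2B genes began a median of 1730 bp before the TSS and ended 610 bp after it, whereas those at H2A genes began 775 bp before and ended 1768 bp after. In the 5 peaks that held only a divergent H2A/H2B pair the types were closer, with medians of 941 bp before and 568 bp after for H2B and 788 bp before and 707 bp after for H2A. In peaks of 3 histone genes the medians were 2147 and 638 bp for H2B and 891 and 1914 bp for H2A. H4 peaks ended a median of 571.5 bp after the TSS (416 to 1276 bp), past the end of the median H4 gene of 427 bp. The 5 H1 peaks began a median of 371 bp before the TSS (20 to 3072 bp), and that at Hist1h1a began farthest upstream of all 63.

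The TSS base itself lay inside a peak at 58 of 67 genes, against 37.6% of all protein-coding genes. At 5 genes the peak lay wholly downstream of the annotated start, over the coding sequence. The H4 gene Hist1h4d had its peak 2 to 523 bp after the start, Hist1h4f 107 to 471 bp, and Hist1h4c 138 to 577 bp. For the H2A genes the distances were 9 to 423 bp at Hist1h2al and 101 to 1741 bp at Hist1h2ab. At Hist1h2al and at 8 other genes, the annotated 5′ end was the first base of the annotated coding sequence, which is incomplete at Hist1h2al.

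Many histone genes are near copies of one another, which bears on how well reads could be placed. In each window, sequences of 150 bp, the tag length, were searched for exact copies on either strand of mm9. A median of 92.8% of them was found once. They were all found once at 15 of 67 genes (22.4%), against 89.0% of all protein-coding genes. Under 80% were found once at 12 genes, against 5.23% of all genes, and all 12 had a peak. The 4 genes without a peak had 95.6% or more. Among the 55 genes with 80% or more, 51 had a peak (92.7%).

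Some peaks lay over sequence with almost no unique stretch of that length. Hist1h2ao, Hist1h2ap, Hist1h2bq and Hist1h2br had no 150-bp sequence found once in their windows. Their peaks, at chr13:21901222-21904179 and chr13:21923649-21926506, had pileups of 17.7 and 18.4, with 7.80% and 5.54% of sequences found once and stretches of 2130 and 2178 bp without any. These are the copied spacers described above. The authors state that uniquely mappable reads were kept, and how reads came to these stretches was not tested. Which of the copies carried the signal is uncertain, also for Hist1h4m (23.7% found once), Hist1h4n (30.1%), Hist2h2aa1 (56.6%), Hist2h2aa2 (56.9%) and Hist2h3c1 (55.8%). Of 270 protein-coding genes with no such sequence found once, 19 had a peak, these 4 among them.

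**Figure D5:**
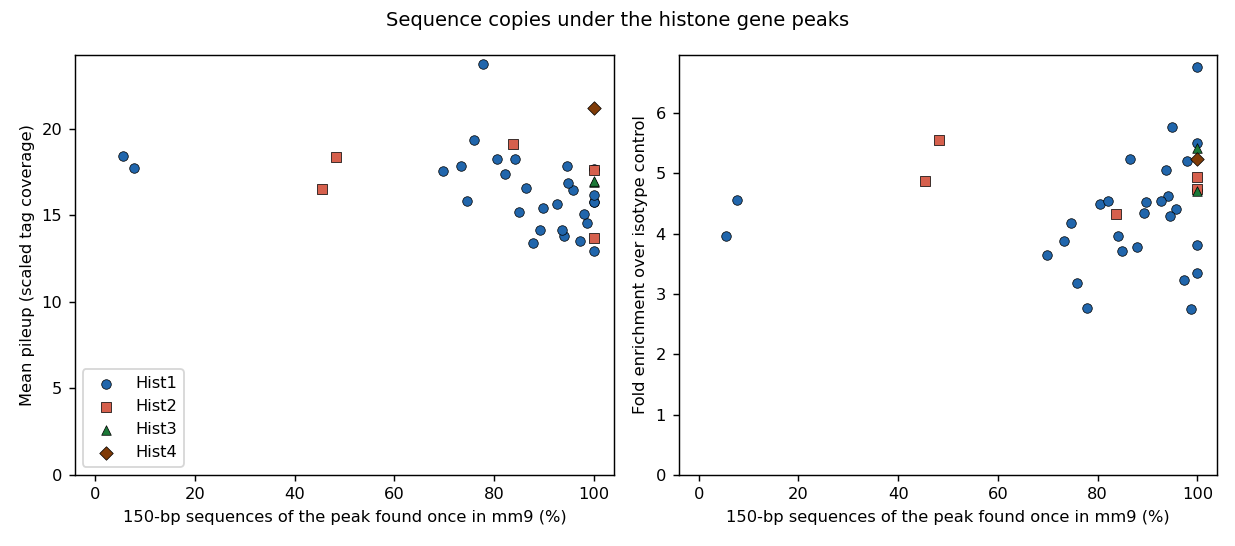
Share of 150-bp sequences of each histone peak that occur once in mm9 (%), against its mean pileup (left) and fold enrichment (right), with 1 point per peak and symbols for the cluster. The 2 points at the left, at 5.54 and 7.80%, are the peaks of Hist1h4n/Hist1h2ap/Hist1h2br and Hist1h2bq/Hist1h2ao/Hist1h4m, and their pileups of 18.4 and 17.7 lie among those of the other peaks.

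Over the 37 peaks the share found once had a Spearman coefficient of -0.40 with pileup and 0.309 with fold enrichment. At Hist1h2al, with the highest pileup and a fold enrichment of 2.77, 77.8% of the peak's sequences were found once, and at Hist1h2an/Hist1h2bp 75.9%. The part of sequence copies in these values was not tested.

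The base composition of the histone windows was intermediate in GC and rich in CpG. Their median GC content was 49.4%, below the 54.7% of protein-coding genes with a peak and above the 46.8% of those without. The ratio of observed to expected CpG was 0.751, above both the genes with a peak (0.652) and those without (0.226). In the 4 histone genes without a peak it ran from 0.415 to 0.650, overlapping the 0.513 to 0.937 of the 63 with one.

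Genes that act on the family were marked too. Of 16 genes for transcription and 3′ end processing of histone messages, 15 had a peak, Zfp473 being the exception. The scaffold gene Npat had a peak with a pileup of 15.3 and a fold enrichment of 6.38, Slbp 16.6 and 4.91, Hinfp 18.2 and 6.83, and Casp8ap2 13.8 and 4.90. Among 12 histone chaperone genes, all 12 had a peak, with Asf1a at a pileup of 24.0 and Asf1b at 9.18. Of 13 replication-independent histone genes 8 had one. H2afx, which has the stem-loop pattern after its stop codon, had a pileup of 19.6 and a peak of 2195 bp. H2afz, the gene of H2A.Z, had a pileup of 17.7, and H3f3a, which encodes H3.3, 24.5. No peak was called at H3f3b, H2afj, or the germ line linker genes H1fnt, H1foo and Hils1. Their shares stand against the same 47.5% of all genes.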

How the data were processed

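Chromatin of E14 retinas was profiled for H3K27ac. Per the study's methods, the authors used Bowtie2 against mm9 and retained only reads with a unique placement. Per the file header, they called broad peaks with MACS 2.1.0.20140616 (broad cutoff 0.1, q cutoff 0.05) on 1 ChIP alignment, and the label lists 2 replicates and 1 isotype control. Of 159237447 ChIP tags 113543038 were kept, and of 27735759 control tags 9210563. The deposited list gives for each peak its length in bp, the mean pileup (tag coverage signal, larger library scaled down), the fold enrichment (a ratio to local control) and −log10 p-values and q-values. It holds no counts per replicate, so counting error is the only error given here.

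Members were found by symbol in GENCODE vM1. The symbol rule and all gene lists were chosen with earlier results of these data known. A peak counted when at least 1 base overlapped the 2001 bp window on the TSS. Scripts (Python 3.11.15, pandas 2.3.3, numpy 2.4.6, scipy 1.17.1) were tested on simulated data. Named were the genes of Hist2, Hist3 and Hist4, all H1 genes, the testis genes, genes without a peak, and the 3 highest, lowest, longest and shortest peaks. Others named were chosen after their values were seen. Sequences were read from mm9. Motifs were also counted in RefSeq promoters (GRCm38.p6), where 60 members matched. The 150-bp copies were sampled every 50 bp at non-member genes. Alternatives were other windows, thresholds, overlaps and start sites. Of the progenitor markers, 1 is not reported here.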

Additional observations from a re-analysis of the deposited data

How the results depend on the processing

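The list is a single call with 1 value per peak, so depth limits how far its absent peaks can be read: a window without a peak is not shown to lack the mark. Of 66 alternative values, 60 stayed within the interval of the reported value, or within 1.5 times the count. For the 1 Hist4 gene that interval ran from 20.7 to 100%, and for the 2 Hist3 genes from 34.2 to 100%. In such small groups a value that stays within the interval says little. The share of histone genes with a peak was 94.0% with windows of 500 or 2000 bp and 93.3% from RefSeq starts (56 of 60 genes), an alternative chosen after seeing the data. At limits of 4 for fold enrichment and 0.001 for q the share was 65.7% of all 67 genes, 58.2% in Hist1, 63.2% of H2A genes and 61.1% of H2B genes. At these limits it was also lower for H1 (50%), H3 (81.8%) and H4 genes (69.2%), though within their wide intervals. With a window from 5000 bp upstream to 1000 bp downstream the H4 share became 100%, where the window of Hist1h4b reached the upstream peak of Hist1h2ab and Hist1h3b. For the non-histone genes inside the clusters the share was 34.4%, and 10.2% without the span to Hist1h2al, a limit also set after seeing the data. Counting merged windows once gave 37 of 40. No paired analysis was possible because the list gives 1 value per peak and none per replicate, and for the same reason no replicate could be left out.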

Other observations

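The start site annotated for Hist2h3c1 lay 1131 bp from its RefSeq start, the largest difference among the 60 histone genes matched, whose median difference was 4 bp. Its annotated start lay 1197 bp before its start codon and 16 bp from that of Hist2h2aa1, and the pair shared a peak. Of the 35 peaks over the windows of 3 or more protein-coding genes, the longest was the one over Hist1h4a, Hist1h3a and Hist1h1a, at 3426 bp. By the annotated coding sequences, the H3 genes gave 3 distinct proteins in 11 genes and the H2A genes 10 in 19. The H2B genes gave 12 in 18 and the H1 genes 6 in 6. These counts include a model of 181 codons at Hist2h3c1, against 136 in the commonest H3 protein. They also include H2B models of 120 to 138 codons, against 126 in the commonest, and the incomplete 125-codon model of Hist1h2al.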
